A study of Mus with 2 samples.

Results

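Iron recycling and storage were followed through 9 genes of mouse bone marrow, chosen by symbol from the 32285 genes of a single-cell RNA sequencing experiment. They are Hmox1, Cd163, Spic, Slc40a1, Tfrc, Slc11a2, Slc11a1, Fth1 and Ftl1, and all 9 were present in the gene lists of both libraries. The study set 1 library of hindlimb bone marrow from mice labelled ground beside 1 library from mice labelled running, made with a droplet kit that counts the 3′ ends of transcripts by unique molecular identifiers (UMIs). The labels do not give the strain, sex, age or number of the mice, nor the running regime. With 1 library per group, no difference between ground and running has a replicate check, the difference between animals or preparations cannot be told apart from that of running, and every interval in the text covers counting error only.

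Iron circulates in a nearly closed loop between red cell precursors and macrophages. Erythroblasts take up transferrin-bound iron through the transferrin receptor (Tfrc) and move it out of the endosome through DMT1 (Slc11a2) to make haem. Macrophages that engulf old red cells or take up haemoglobin through the scavenger receptor Cd163 open the haem ring with haem oxygenase 1 (Hmox1), and the iron either leaves through ferroportin (Slc40a1), the exporter that hepcidin removes, or is kept in ferritin, a shell built of heavy (Fth1) and light (Ftl1) chains. Spi-C (Spic) is a transcription factor needed for the iron-recycling macrophages of spleen and marrow. NRAMP1 (Slc11a1) moves metal ions out of the phagosome and marks phagocytes. The messenger RNAs of Tfrc, Slc11a2, Slc40a1, Fth1 and Ftl1 are also bound by iron regulatory proteins, which change their stability or translation, so that the transcript level is only a part of the control.

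After filtering, 8666 ground cells and 9080 running cells with median depths of 5938 and 5145.5 UMIs were grouped into 16 classes by marker genes, with the 9 genes and 47 further iron genes kept out of the clustering. Of the barcodes, 24 occurred in both libraries. Class names ending in -like rest on these markers. The macrophage-like class was small and shallow: it held 61 ground cells, with a median of 823 UMIs, and 217 running cells, with a median of 945 UMIs. Its 8 leading genes were complement C1q chains, Fcna, Vcam1, Mrc1, Axl and Cd5l, all of them macrophage markers, and all 11 macrophage markers had UMIs in it in both libraries. Levels are given as CPM, the UMIs of a gene scaled to a class total of 1000000 UMIs, and are compared between classes or libraries and not between genes. A difference is called when it was at least 1.5-fold and rested on at least 50 UMIs over the 2 libraries.

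**Figure D1:**
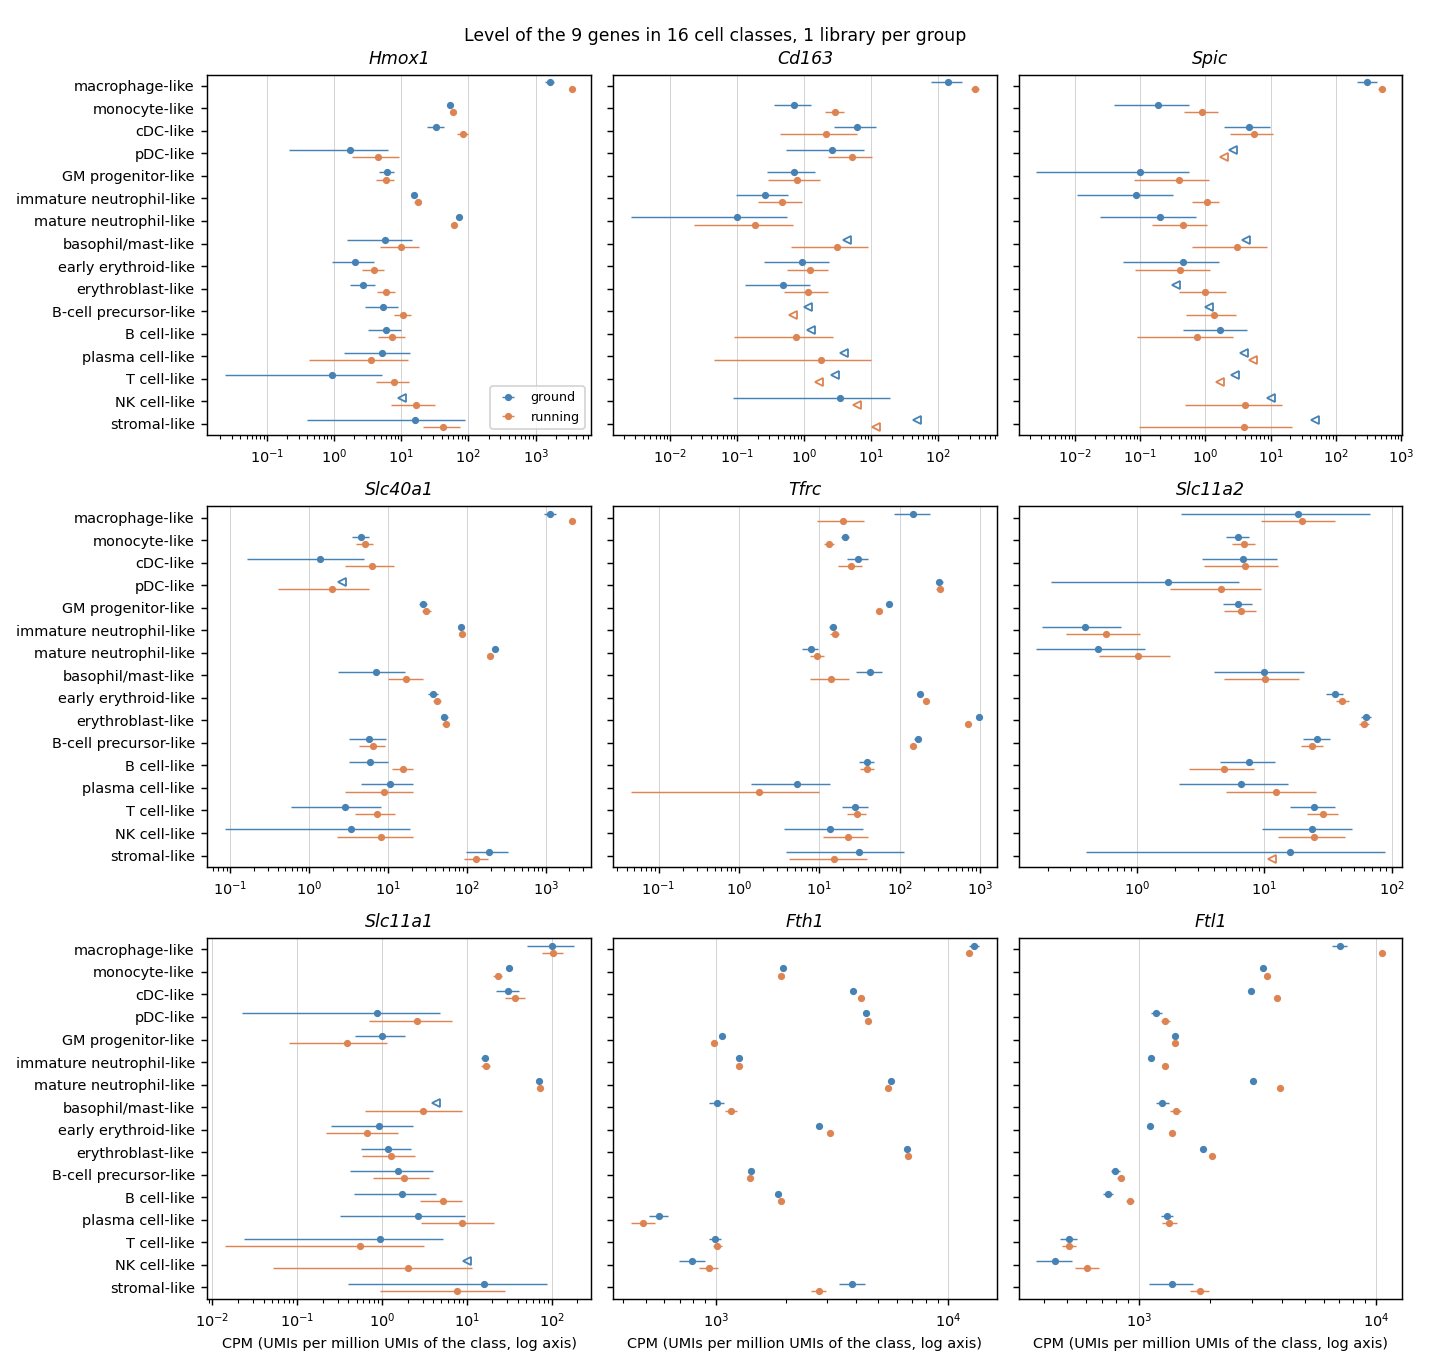
Level of each of the 9 genes (CPM, log axis, a separate scale for each gene) in 16 cell classes of the ground (blue) and running (orange) libraries. Points are summed UMI counts of 1 library with exact Poisson 95% intervals, and an open triangle marks the limit that 3 counts allow where no UMI was found; macrophage-like cells had the highest level of 7 genes in both libraries, while erythroblast-like cells led for Tfrc and Slc11a2.

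Hmox1, Cd163 and Spic had their highest level in the same class. Hmox1 reached 1625 CPM in macrophage-like cells of the ground library and 3528 CPM in those of the running library. Its next classes were mature neutrophil-like cells (71.4 and 60.8 CPM), conventional dendritic cell-like cells (33.2 and 82.0 CPM) and monocyte-like cells (53.8 and 59.6 CPM), whose intervals overlapped over the 2 libraries. Within the monocyte-like class, Hmox1 was highest in cluster 21, led by Ace, Adgre4 and Ear2 as in non-classical monocytes, with 99.4 CPM in ground and 191 CPM in running. All erythroid and lymphoid classes had at most 16.3 CPM.

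Spic was by far highest in macrophage-like cells, with 305 CPM in the ground library and 505 CPM in the running one. That class held 33 of the 54 Spic UMIs of ground and 258 of the 328 of running. No other class passed 5.60 CPM. Cd163 had 139 and 355 CPM there, followed at low levels by conventional (6.10 and 2.10 CPM) and plasmacytoid (2.62 and 5.20 CPM) dendritic cell-like cells, which could not be ranked. T cell-like cells, which should lack both, had no UMI of either gene among 205 ground cells and 285 running cells, which allows up to 2.82 and 1.66 CPM of each.

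Slc40a1 was not a macrophage transcript alone. It was highest in macrophage-like cells, with 1136 CPM in ground and 2135 CPM in running, but mature neutrophil-like cells had 228 and 199 CPM and immature neutrophil-like cells 83.8 and 86.6 CPM. Mesenchymal stromal-like cells, of which there were 23 and 47, had 190 and 131 CPM, a range that overlapped that of mature neutrophil-like cells. Erythroblast-like cells had 51.9 and 54.4 CPM and early erythroid-like cells 37.4 and 42.2 CPM. Monocyte-like cells, by contrast, had 4.51 and 5.08 CPM, within the range of T cell-like cells (2.82 and 7.19 CPM). The mature and immature neutrophil-like classes, the 2 with the most cells, held 42.7% and 36.0% of all Slc40a1 UMIs of the ground library and 36.5% and 25.4% of those of the running library.

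**Figure D2:**
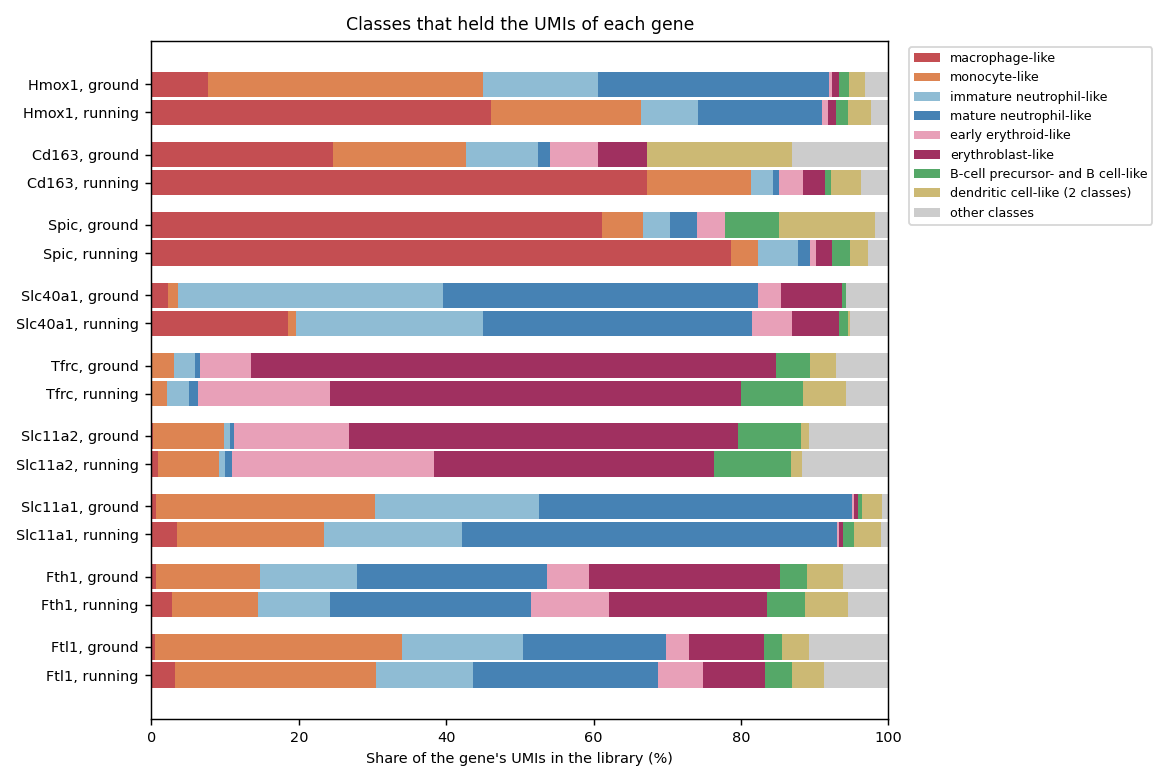
Share of each gene's UMIs (%) held by each cell class in the ground and running libraries, as stacked bars that add to 100%. Macrophage-like cells (red, at the left) held 7.73% of Hmox1 UMIs in ground and 46.0% in running, neutrophil-like cells held most Slc40a1 UMIs in both, and erythroid classes held most Tfrc and Slc11a2 UMIs in both.

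Tfrc and Slc11a2 had another order. Tfrc was highest in erythroblast-like cells (962 CPM in ground, 704 in running), and the 2 erythroid classes together held 78.1% and 73.7% of its UMIs. Plasmacytoid dendritic cell-like cells came next, at 314 CPM in each library, above early erythroid-like cells (177 and 213 CPM) and B-cell precursor-like cells (168 and 146 CPM), whose intervals overlapped. Mature neutrophil-like cells had 7.81 and 9.49 CPM, and plasma cell-like cells 5.24 and 1.77 CPM. Slc11a2 was likewise highest in erythroblast-like cells (62.9 and 60.4 CPM) and then in early erythroid-like cells (35.6 and 40.9 CPM). T cell-, B-cell precursor- and NK cell-like cells followed at 23.6 to 28.8 CPM and could not be ranked at this depth. Neutrophil-like cells had at most 1.01 CPM of Slc11a2.

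Slc11a1 was a transcript of phagocytes. Macrophage-like cells had 102 CPM in ground and 104 CPM in running, and mature neutrophil-like cells 71.1 and 72.0 CPM, with intervals that overlapped those of macrophage-like cells. Conventional dendritic cell-like cells (30.5 and 37.1 CPM) and monocyte-like cells (31.5 and 23.0 CPM) followed. Granulocyte-monocyte progenitor-like cells had 0.999 and 0.390 CPM, on 10 and 3 UMIs.

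Ferritin transcripts were found in nearly every cell. Fth1 had at least 1 UMI in 98.4% of ground cells and 99.2% of running cells, and Ftl1 in 96.0% and 97.6%. Macrophage-like cells had the highest levels of both: 12919 and 12258 CPM of Fth1, and 7018 and 10604 CPM of Ftl1. For Fth1, erythroblast-like cells followed (6673 and 6686 CPM) and then mature neutrophil-like cells (5646 and 5531 CPM). For Ftl1, mature neutrophil-like (3027 and 3938 CPM), monocyte-like (3331 and 3473 CPM) and conventional dendritic cell-like cells (2961 and 3825 CPM) followed, with ranges that overlapped. Plasma cell-like cells had the lowest Fth1 (567 and 486 CPM) and T and NK cell-like cells the lowest Ftl1 (442 to 605 CPM). Reads of a processed Ftl1 copy, Ftl1-ps1, were counted separately and came to 0.861% and 0.901% of the Ftl1 UMIs. The sources used here do not say how reads common to both were assigned.

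Over all cells, 3 of the 9 genes were called higher in the running library and none was called lower. Of 13738 genes with at least 50 UMIs, 6.53% were called higher and 1.87% lower. Hmox1 had 2277 UMIs (27.7 CPM) in ground and 3912 UMIs (49.9 CPM) in running, a ratio of 1.80 (95% counting interval 1.71 to 1.90). Cd163 rested on 61 UMIs in ground and 269 in running (0.743 and 3.43 CPM), a ratio of 4.62 (3.49 to 6.20). Spic rested on 54 and 328 UMIs (0.658 and 4.18 CPM), a ratio of 6.36 (4.76 to 8.65). The other 6 genes lay between a log2 ratio of −0.30, for Tfrc, and 0.22, for Slc11a2. Median log2 ratios were 0.21 over the 9 genes and 0.08 over all genes tested.

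The number of macrophage-like cells differed alongside these 3 genes. They made up 0.704% of ground cells and 2.39% of running cells. That class held 7.73% of the Hmox1 UMIs of the ground library and 46.0% of those of the running library, 61.1% and 78.7% of the Spic UMIs, 24.6% and 67.3% of the Cd163 UMIs, and 2.31% and 18.5% of the Slc40a1 UMIs. When every class was given its share of ground cells in both libraries, the log2 ratio of Hmox1 went from 0.85 to 0.21, that of Cd163 from 2.21 to 1.26 and that of Spic from 2.67 to 1.43. Hmox1 was then no longer called, while Cd163 and Spic were. Slc40a1 went from 0.21 to −0.09 and Ftl1 from 0.19 to 0.14. These class proportions rest on 61 and 217 macrophage-like cells. With called doublets kept and the cells clustered again, the class held 117 and 263 cells, a narrower gap.

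**Figure D3:**
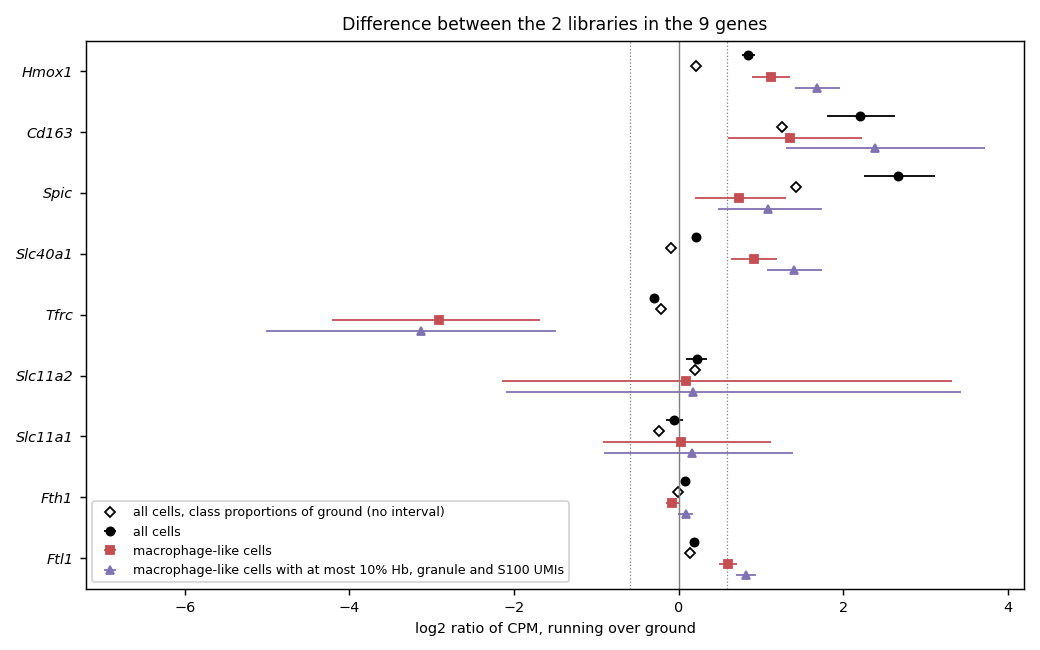
Log2 ratio of CPM, running over ground, of the 9 genes over all cells, over all cells with the class proportions of ground, in macrophage-like cells, and in macrophage-like cells with at most 10% of UMIs from haemoglobin, granule and S100 genes. Bars are 95% counting intervals and dotted lines mark the 1.5-fold call; in macrophage-like cells Hmox1 (1.12), Cd163 (1.36), Spic (0.73), Slc40a1 (0.91) and Ftl1 (0.60) lie to the right of the upper line.

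Within macrophage-like cells, 5 of the 7 genes with enough UMIs were called higher in running and none was called lower. Among the 1904 genes that could be compared in this class, 14.1% were called higher and 13.5% lower. The class held 108291 UMIs in ground and 510539 in running, so a gene could meet the UMI minimum mostly through running. Tfrc, which was lower in running, and Slc11a2 did not meet it. Hmox1 had 176 UMIs in ground and 1801 in running, a log2 ratio of 1.12 (0.89 to 1.35). Slc40a1 had 123 and 1090 UMIs, a log2 ratio of 0.91 (0.64 to 1.19). Cd163 had only 15 and 181 UMIs, a log2 ratio of 1.36 (0.60 to 2.22), and Spic 33 and 258 UMIs, a log2 ratio of 0.73 (0.20 to 1.30). These are the haem oxygenase, the iron exporter, the haemoglobin receptor and the transcription factor of red pulp-type macrophages.

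The 2 ferritin chains parted in macrophage-like cells. Ftl1 rested on 760 and 5414 UMIs, a log2 ratio of 0.60 (0.49 to 0.71) that lay close to the call and passed it under 8 of 13 alternatives (0.44 to 1.05), whereas Fth1 rested on 1399 and 6258 UMIs, a log2 ratio of −0.08 (−0.16 to 0.01). Slc11a1 had 11 and 53 UMIs, a log2 ratio of 0.03 (−0.92 to 1.12). Tfrc, below the UMI minimum there, had 16 UMIs in ground (148 CPM) and 10 in running (19.6 CPM), a log2 ratio of −2.92 (−4.22 to −1.69). The 10 erythroblast markers summed to 20186 and 574 CPM in the same cells. Without the cells that had over 10% haemoglobin, granule and S100 UMIs, Tfrc had 11 and 5 UMIs (176 and 20.1 CPM). Its log2 ratio was then −3.13 (−5.01 to −1.49). The part of erythroblast transcripts in the Tfrc counts was not tested. Slc11a2 had 2 and 10 UMIs.

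The share of macrophage-like cells with an Hmox1 UMI differed little between libraries beside the gap in level. Hmox1 was detected in 42 of 61 ground cells (68.9%, exact binomial 95% interval 55.7 to 80.1%) and in 151 of 217 running cells (69.6%, 63.0 to 75.6%). Slc40a1 was detected in 63.9% and 62.2% of them, Spic in 34.4% and 46.1%, and Cd163 in 9.84% and 25.3%. Thinned to 1000 UMIs per cell, which left 22 ground cells and 100 running cells, the shares were 68.2% and 62.0% for Hmox1, 63.6% and 66.0% for Slc40a1, 36.4% and 38.0% for Spic and 13.6% and 22.0% for Cd163. T cell-like cells, with median depths of 4538 and 5729 UMIs, had an Hmox1 UMI in 0.488% and 3.86% of cells and a Slc40a1 UMI in 1.46% and 3.86%. Thinned in the same way, they had an Hmox1 UMI in 0.490% and 0.352% of cells, and no Cd163 or Spic UMI in 204 ground and 284 running cells (3 counts of the total, the limit used for a count of 0, are shares of 1.47% and 1.06%). At least 2 of Hmox1, Cd163, Spic and Slc40a1 were found in 63.9% of the ground cells and 64.5% of the running cells of the macrophage-like class. All 4 were found in 1 ground cell (1.64%) and 31 running cells (14.3%). These counts of genes found together were not thinned, and the running cells of the class were deeper (medians of 823 and 945 UMIs).

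A few cells carried much of the signal. In the ground library, 1 macrophage-like cell held 41 of the 176 Hmox1 UMIs and 5 cells held 38.6% of them. In the running library 1 cell held 133 of 1801 and 5 cells 26.1%. Of the 15 ground Cd163 UMIs, 8 came from 1 cell. When each cell counted equally, as the mean of CPM over cells, the log2 ratio was 0.77 for Hmox1, 0.65 for Slc40a1 and 0.51 for Spic, so that Spic was no longer called.

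Transcripts of other cells differed within the macrophage-like class at the same time. The 4 haemoglobin genes summed to 20057 CPM in ground and 564 CPM in running, and 11 granule and S100 genes of neutrophils summed to 76276 and 167868 CPM. The 11 macrophage markers summed to 14461 and 12982 CPM. Haemoglobin, granule and S100 UMIs made up over 10% of the UMIs of 8 ground cells (13.1%) and 43 running cells (19.8%), which held 42.4% and 51.4% of the UMIs of the class. Without those cells the log2 ratios were 1.68 for Hmox1 (1923 and 6157 CPM), 1.40 for Slc40a1, 1.08 for Spic, 2.38 for Cd163, on 7 ground UMIs, 0.82 for Ftl1 and 0.08 for Fth1. The class also differed when Scrublet's called doublets were kept and the cells clustered again. It then held 117 and 263 cells, with medians of 3122 and 1200 UMIs in place of 823 and 945. Its total was 601625 UMIs in ground, in place of 108291, and 896942 in running, in place of 510539. The log2 ratios of Hmox1, Slc40a1, Cd163 and Spic, scaled to these totals, were 2.70, 2.58, 2.68 and 2.26.

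Outside the macrophage-like class, Hmox1 was called higher in 3 of the 7 further classes with enough UMIs, beside 4.37% called higher and 4.04% lower among all pairs of a gene and a class in the 14 classes compared. In conventional dendritic cell-like cells, where 5.65% of genes were called higher, it had 49 UMIs in ground and 117 in running, a log2 ratio of 1.30. A single running cell held 49 of those 117 UMIs. Without the top cell of each library the log2 ratio was 0.72, and as the mean of CPM over cells 0.19. In B-cell precursor-like cells (2.78% of genes called higher) it had 14 and 46 UMIs, a log2 ratio of 0.97, and in erythroblast-like cells (2.05%) 23 and 42 UMIs, a log2 ratio of 1.14. The erythroblast-like call passed 1.5-fold under 8 of 11 alternatives and was 0.46 with each of the other groupings of cells. The summed level of the 11 macrophage markers was 13.8 CPM in ground and 23.3 CPM in running in the former, and 10.6 and 27.4 CPM in the latter. In T cell-like cells Hmox1 had 1 and 14 UMIs. The part of macrophage transcripts outside their cells in these low Hmox1 levels was not tested.

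The abundant myeloid classes gave no call for Hmox1. Monocyte-like cells had 848 and 797 UMIs, a log2 ratio of 0.15 (0.01 to 0.29), and mature neutrophil-like cells 713 and 660 UMIs, a log2 ratio of −0.23 (−0.39 to −0.08). In cluster 21 of the monocyte-like class, it rested on 27 and 52 UMIs, a log2 ratio of 0.94 (0.25 to 1.67). Slc40a1 was called higher in B cell-like cells, where 4.11% of genes were called higher, on 14 and 42 UMIs. Of the 42, 32 lay in the 37 running cells of cluster 31, and cluster 2, the largest of the class, had 4 and 4. With doublets kept, its log2 ratio there turned from 1.39 to −0.06.

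Along the neutrophil lineage, the CPM of Slc40a1, Slc11a1, Fth1 and Ftl1 was higher in the mature clusters than in the immature ones, in both libraries. The 9 neutrophil-like clusters were ordered by the summed level of 8 markers of immature neutrophils, such as the granule genes Camp, Ltf and Ngp. Slc40a1 had 51.2 CPM in ground and 55.4 CPM in running in cluster 18, the first in that order, 117 and 125 CPM in cluster 0, and 458 and 443 CPM in cluster 5, the last, which was led by Il1b. Slc11a1 had 3.31 and 1.62 CPM in cluster 18, 42.5 and 47.5 CPM in cluster 0, and 108 and 110 CPM in cluster 5. In cluster 5 Fth1 had 8724 and 8478 CPM and Ftl1 4856 and 6072 CPM. Median depth differed as well, from 14854.5 and 17011 UMIs per cell in cluster 18 to 2377.5 and 2295.5 UMIs in cluster 5. A higher CPM therefore need not mean more UMIs per cell. In ground, 198 cells of cluster 18 held 2832 Ftl1 and 1708 Fth1 UMIs, and 736 cells of cluster 5 held 9317 and 16738. In running, 147 cells of cluster 18 held 2518 and 1255, and 624 cells of cluster 5 held 9477 and 13231.

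**Figure D4:**
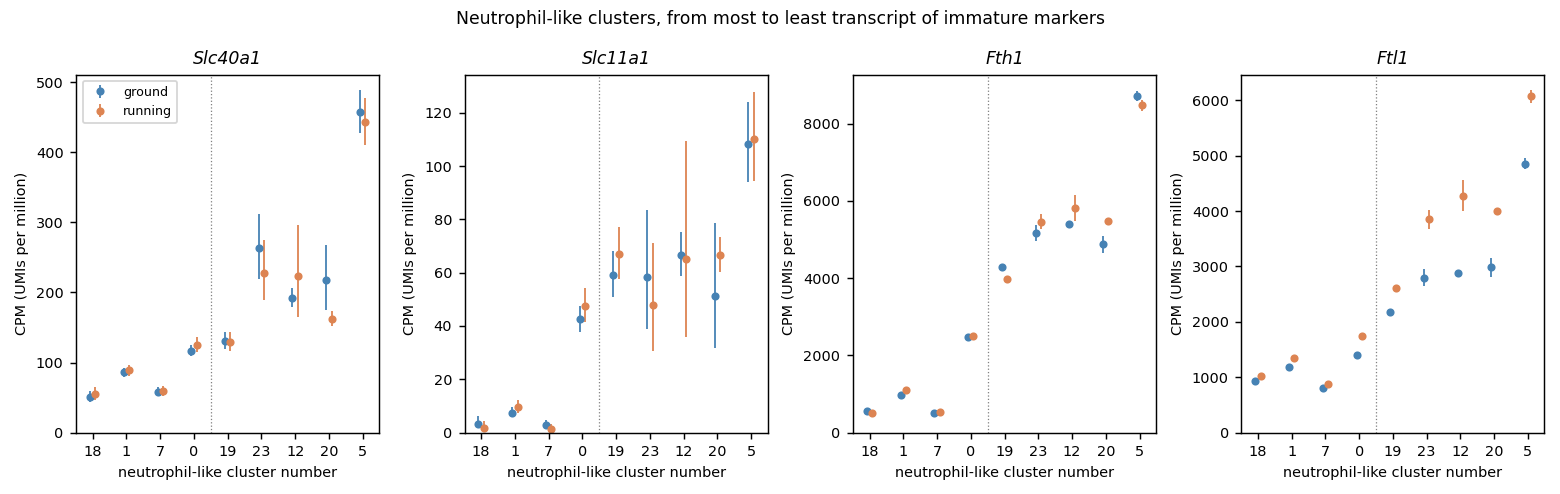
Level (CPM, with exact Poisson 95% intervals) of Slc40a1, Slc11a1, Fth1 and Ftl1 in the 9 neutrophil-like clusters of the ground and running libraries, ordered from the highest to the lowest summed level of immature neutrophil markers; the dotted line parts immature from mature neutrophil-like clusters. All 4 genes are highest in cluster 5, and Ftl1 of running lies above ground in each mature cluster.

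Different clusters held most of the mature neutrophil-like class in each library. Cluster 12 held 37.8% of its ground cells and 2.02% of its running cells, and cluster 20 held 3.76% and 53.0%. Differences within the class were therefore read cluster by cluster as well. Slc40a1 had a log2 ratio of −0.20 (−0.28 to −0.11) over the class, −0.05 (−0.19 to 0.10) in cluster 5, −0.02 (−0.23 to 0.18) in cluster 19, −0.20 (−0.58 to 0.17) in cluster 23, 0.22 (−0.23 to 0.64) in cluster 12 and −0.42 (−0.74 to −0.09, on 89 and 939 UMIs) in cluster 20. Slc11a1 had a log2 ratio of 0.02 (−0.13 to 0.17) over the class. In monocyte-like cells, by contrast, Slc11a1 had 496 and 307 UMIs, a log2 ratio of −0.46 (−0.67 to −0.25), short of the call, with −0.46 in cluster 10, which held most of its UMIs there. Ftl1 had a log2 ratio of 0.38 (0.36 to 0.40) over the class and between 0.26 and 0.57 in each of its 5 clusters, whereas Fth1 had −0.03 over the class and between −0.11 and 0.17 in the clusters.

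A higher light chain was common to most classes, by less than 1.5-fold. In 11 of the 14 classes compared, the counting interval of the Ftl1 log2 ratio lay above 0, and in none did it lie below. Among all pairs of a gene and a class the interval lay above 0 in 12.4% and below in 10.6%, with 5.60% to 26.7% above 0 in single classes, and an interval is narrower the more UMIs a gene has. For Fth1 it lay above 0 in 4 classes and below in 3. Macrophage-like cells were the only class of the 14 in which Ftl1 was called.

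The heavy-chain share, Fth1 UMIs as a percent of Fth1 plus Ftl1 UMIs, does not depend on the total used for scaling. It ran from 30.1% in plasma cell-like cells to 78.8% in plasmacytoid dendritic cell-like cells of the ground library, and from 26.5% to 77.8% in the same classes of the running library. Monocyte-like cells had a low share (36.9% and 35.4%), and erythroblast-like cells a high one (78.1% and 76.7%). Over all cells it was 58.3% in ground (exact binomial 95% interval 58.1 to 58.4%) and 56.4% in running (56.3 to 56.6%).

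Within classes the share was lower in running in 14 of 16, and in 10 of these the 2 intervals did not overlap. In T cell-like and basophil or mast cell-like cells it was higher, by 0.36 and 0.38 percentage points, within the intervals. The share differed when called doublets were kept and the cells clustered again. Of 34 values, over both libraries and including all cells and all erythroid cells, 16 lay outside the interval obtained without called doublets. In immature neutrophil-like cells the shares were then 47.5% and 46.3% in place of 52.8% and 49.3%. The parts of the doublets and of the new grouping were not told apart. With that setting the share was lower in running in 14 of 15 classes. The 3 widest gaps were in mesenchymal stromal-like cells, from 73.7% (244 Fth1 and 87 Ftl1 UMIs) to 60.5% (720 and 470 UMIs), in macrophage-like cells, from 64.8% to 53.6%, and in mature neutrophil-like cells, from 65.1% to 58.4%. Without the macrophage-like cells rich in haemoglobin, granule and S100 UMIs, the macrophage-like shares were 65.1% and 52.8%. Of 30 clusters with at least 20 cells in each library, the share was lower in running in 26, in 17 with intervals apart, and in no cluster was it higher with intervals apart. The 2 libraries were each made once, so a difference seen across many classes cannot be told apart from one between library preparations.

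**Figure D5:**
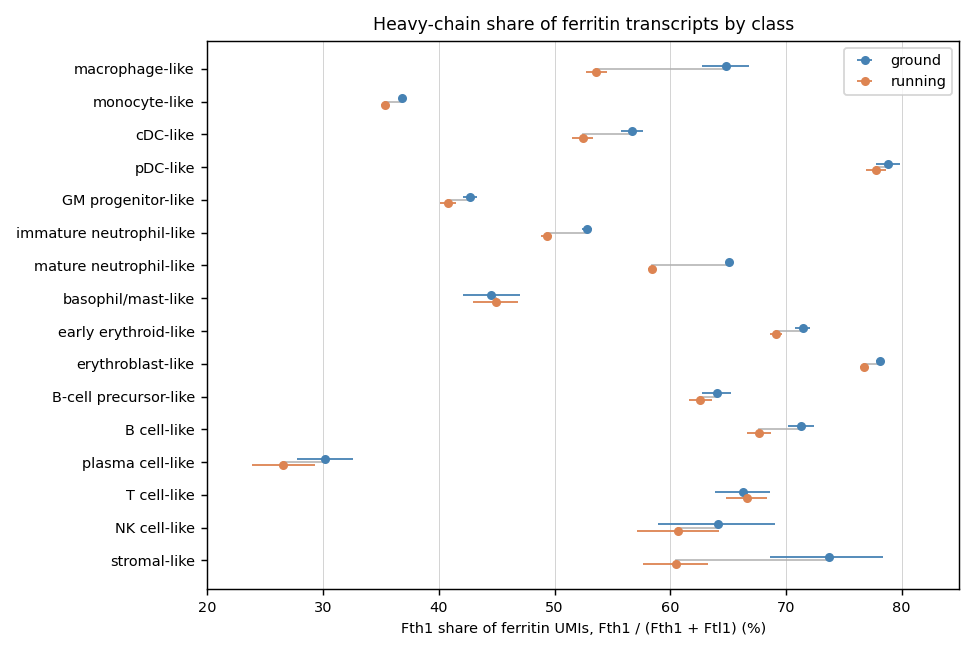
Heavy-chain share of ferritin UMIs, Fth1 / (Fth1 + Ftl1), in percent, in 16 cell classes of the ground (blue) and running (orange) libraries, with exact binomial 95% intervals; the horizontal axis starts at 20%. Running lies to the left of ground in 14 of the 16 classes, farthest in mesenchymal stromal-like cells (73.7% and 60.5%) and macrophage-like cells (64.8% and 53.6%).

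Tfrc was lower in running in the class that held most of it. Erythroblast-like cells had 8156 UMIs in ground and 4954 in running, a log2 ratio of −0.45 (−0.50 to −0.40), less than the 1.5-fold call. The deep cluster 8, with median depths of 25368.5 and 29012 UMIs, had 1016 and 734 CPM, a log2 ratio of −0.47, and the shallow cluster 24 had 210 and 229 CPM. Early erythroid-like cells had 781 and 1594 UMIs and the opposite direction, a log2 ratio of 0.27 (0.14 to 0.39). That class changed with the clustering, since at resolution 2 a cluster with stem cell markers took 179 of its 337 cells, and with the other groupings its log2 ratio was −0.63 to −0.61. Both erythroid classes together had 693 and 451 CPM, a log2 ratio of −0.62 (−0.67 to −0.57), and were called lower, beside 2.89% of genes called lower and 4.07% called higher. As the mean of CPM over cells the log2 ratio was −0.49, short of the call. At resolution 1 neither class alone was called. Early erythroid-like cells made up 147 of 640 erythroid cells in ground and 190 of 581 in running. They held 4409993 of 12889878 erythroid UMIs in ground and 7481580 of 14523252 in running, and the pooled CPM is weighted by UMIs. The 4 haemoglobin genes of erythroblast-like cells summed to 100933 CPM in ground and 83286 CPM in running.

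Slc11a2, which acts with Tfrc in the endosome, did not follow it. Its log2 ratio was −0.06 (−0.25 to 0.13) in erythroblast-like cells and 0.20 (−0.08 to 0.49) in early erythroid-like cells, and none of the 6 classes with enough UMIs was called. Over both erythroid classes together it was −0.09 (−0.24 to 0.06).

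Tfrc was also called lower in monocyte-like cells, where 3.21% of genes were called lower. It had 330 UMIs (20.9 CPM) in ground and 178 UMIs (13.3 CPM) in running, a log2 ratio of −0.65 (−0.93 to −0.39). Under 2 of 11 alternatives it fell short of the call, at −0.40 with doublets kept. Most of the UMIs lay in cluster 6, which was led by F13a1 and histone genes, with 214 and 107 UMIs and a log2 ratio of −0.80 (−1.15 to −0.46). In plasmacytoid dendritic cell-like cells the log2 ratio was 0.00 (−0.20 to 0.20), and in B-cell precursor-like cells −0.21 (−0.39 to −0.03). Granulocyte-monocyte progenitor-like cells had 746 and 427 UMIs, a log2 ratio of −0.43 (−0.60 to −0.25).

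Dividing cells need iron for ribonucleotide reductase, and Tfrc went with cell cycle transcripts in some classes. Monocyte-like cells with a UMI of a cell cycle gene had 24.5 CPM of Tfrc in ground, against 5.69 CPM in the other cells of the class, and 15.5 against 6.25 CPM in running. Immature neutrophil-like cells had 19.7 against 6.08 CPM in ground and 21.0 against 8.02 CPM in running. Conventional dendritic cell-like cells had 46.5 against 15.7 CPM and 37.0 against 14.1 CPM. No such gap was seen in B-cell precursor-like cells (171 against 161 CPM, and 147 against 140 CPM), where the counting intervals of the ratio held 1, and plasmacytoid dendritic cell-like cells had 318 against 311 CPM in ground and 347 against 288 CPM in running. Cells with a cell cycle UMI were deeper, with medians of 12006 against 8298 UMIs in the monocyte-like cells of the ground library.

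Of the 47 further iron genes, in 7 lists, 39 had at least 50 UMIs over all cells. Of these, 2 were called higher and 2 lower, beside 6.53% higher and 1.87% lower among all genes tested, and their median log2 ratio was 0.05, beside 0.08. Steap4, a metalloreductase, had 1586 and 399 UMIs, a log2 ratio of −1.92, and Erfe, the erythroid hormone that suppresses hepcidin, 62 and 21 UMIs, a log2 ratio of −1.50. Those called higher were the ferroxidase ceruloplasmin, Cp, on 79 and 120 UMIs (0.67), and Bmp6, an inducer of hepcidin, on 28 and 47 UMIs (0.81). Both had their highest level in mesenchymal stromal-like cells, and there the order was the opposite: Cp had 933 CPM in ground and 385 CPM in running, and Bmp6 332 and 158 CPM, in a class of 23 and 47 cells. Erfe and Bmp6 were named after their values were seen. The other genes of the lists that the naming rule picked gave no call. They were the haem genes Lrp1 (−0.42), Slc48a1 (0.19) and Flvcr1 (0.17), and the regulators Mafk (0.29), Nfe2l2, which encodes Nrf2 (0.18), and Keap1 (0.18). Of the uptake genes, Tfr2 had 0.50 and Steap3 0.32. The iron chaperones Pcbp2 and Pcbp1 had 0.09 and 0.06. The ferritin receptor Ncoa4 had 0.05, with an interval that held 0 (−0.006 to 0.097). Of the sensing genes, Hfe had −0.46, Smad7 0.25 and Fbxl5 −0.13, and of the mitochondrial genes Slc25a37 had −0.46, Fech −0.23 and Abcb10 −0.22.

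In macrophage-like cells, 13 of the 47 had enough UMIs. None was called higher and 1 was called lower, beside the 14.1% higher and 13.5% lower of all genes there. The gene called lower was Blvra, a biliverdin reductase that acts after haem oxygenase, on 26 and 61 UMIs (log2 ratio −1.01). The other biliverdin reductase, Blvrb, had 443 and 356 CPM (−0.31, −0.78 to 0.18), and the haem transporter Slc48a1 194 and 255 CPM (0.39, −0.28 to 1.13), neither of them called. Lrp1, the receptor for haem bound to haemopexin, had 222 and 241 CPM. Ncoa4, the ferritin receptor of autophagy, had 203 and 233 CPM, and the chaperones Pcbp1 and Pcbp2 had log2 ratios of −0.40 and −0.35. Transferrin itself, Trf, had 757 and 846 CPM. The granulocyte proteins that bind iron directly or through siderophores, Ltf and Lcn2, had log2 ratios of 1.33 and 1.65 there, beside −0.38 and −0.60 over all cells; both belong to the granule list whose sum was higher in this class.

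In the erythroid classes together, 33 of the 47 had enough UMIs, 0 were called higher and 3 lower, beside 4.07% higher and 2.89% lower among all genes tested in these cells. The median over the 33 genes was −0.10, beside 0.04. Within early erythroid-like cells it was 0.019 over 32 genes, beside −0.014, and within erythroblast-like cells −0.092 over 31 genes, beside −0.018. Of the 337 early erythroid-like cells, 179 fell in a cluster with stem cell markers at resolution 2. The mix of early and later cells differed between the libraries, as given for Tfrc. Values within each class therefore stand beside the pooled ones for the genes called and for the haem synthesis genes. Mitoferrin 1, Slc25a37, which brings iron into the mitochondria of erythroblasts, had 429 and 231 CPM and a log2 ratio of −0.89 (−0.95 to −0.83) over both classes. It had −0.50 (−0.56 to −0.44) in erythroblast-like cells and −0.25 (−0.58 to 0.08) in early erythroid-like cells, neither of them called. Ferrochelatase, Fech, which places iron in haem, had −0.52 over both classes, −0.24 in erythroblast-like cells and −0.03 in early erythroid-like cells. Its partner Abcb10 had −0.48, −0.16 and 0.20 in the same order. Erfe had 51 and 15 UMIs over both classes, a log2 ratio of −1.94, and 48 and 12 of these UMIs lay in erythroblast-like cells (−1.73). Trf had 108 and 67 UMIs over both classes (−0.86), of which 89 and 53 lay in early erythroid-like cells (−1.51). Of the other genes the naming rule picked, Slc39a8 had −0.46, Fbxl5 −0.39, Abcg2 −0.29, Aco1 −0.28, Ncoa4 −0.25, Blvrb −0.22 and Bach1 −0.18 over both classes. Tfr2, the second transferrin receptor, had 0.27, Nfe2l2 0.25, Flvcr1 0.23, Keap1 0.13, Smad7 0.13, Pcbp1 0.05 and Pcbp2 0.02. The granule genes Lcn2 and Ltf had −1.10 and −0.52. Within erythroblast-like cells, 2 of 31 further iron genes were called lower, Erfe and Fbxl5, beside 2.91% of all genes there. Fbxl5 had 147 and 75 UMIs in that class, a log2 ratio of −0.70 (−1.12 to −0.29). In early erythroid-like cells it had −0.35 (−0.72 to 0.02) and was not called.

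Across the 16 classes, Cd163 and Spic were most alike among the 9 genes, with a Pearson correlation of log2(CPM + 10) of 0.99. Hmox1 correlated with both (0.88 and 0.90), with Slc11a1 (0.89) and with Slc40a1 (0.75). Tfrc and Slc11a2 had a correlation of 0.58. The genes most like Spic over the whole transcriptome were Cd5l, Fcna and Hpgds (each 0.99), those most like Hmox1 were Tgm1, Treml4 and Il18 (each 0.93), and those most like Slc11a1 were Treml4 (0.97), Fcgr4 (0.96) and Lrrc25 (0.93). Slc40a1 was nearest to Il18bp (0.92), Tfrc to Rfx2 (0.91), Slc11a2 to Slc2a8 (0.91), Fth1 to Gpr146 (0.85) and Ftl1 to its copy Ftl1-ps1 (0.94). These correlations describe 16 points from the same 2 libraries that also differ in depth, and Cd5l and Fcna were among the markers that named the macrophage-like class.

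On mouse assembly GRCm38.p6, RefSeq places the genes apart from each other. Hmox1 spans positions 75093618 to 75100593 of chromosome 8, Cd163 124304636 to 124330529 of chromosome 6, and Spic 88675269 to 88683023 of chromosome 10. Slc40a1 (45908070 to 45926532) and Slc11a1 (74375014 to 74386057) both lie on chromosome 1. Tfrc spans 32608896 to 32632794 of chromosome 16 and Slc11a2 100387898 to 100424209 of chromosome 15. Fth1 lies at 9980600 to 9985111 of chromosome 19 and Ftl1 at 45457944 to 45459886 of chromosome 7.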

How the data were processed

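The authors deposited unnormalised counts of UMIs for each gene in each barcode. The file headers name Cell Ranger 5.0.0 as the software, and the submitters' processing notes list STAR and the build mm10. How barcodes were filtered before deposit is not stated in these sources. The ground library held 85014860 UMIs in 9162 barcodes and the running library 79990530 UMIs in 9473. Cells with at least 500 UMIs, 250 genes and at most 10% mitochondrial UMIs were kept. Scrublet, run per library in scanpy 1.11.5, removed 243 ground cells (2.73%) and 100 running cells (1.09%). Cells of both libraries were clustered together, without integration (2000 variable genes, 30 principal components, Leiden resolution 1), and the 32 clusters were named from fixed marker lists of 22 cell types by their 10 leading genes, or where these gave no name by the mean fold of the markers (cluster 23).

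Counts were summed per class and library and scaled to 1000000 UMIs (CPM). Classes with at least 20 cells per library were described and those with at least 50 compared. Intervals are exact Poisson (levels), exact conditional binomial (ratios) and Clopper-Pearson (shares), at 95%; they cover counting error only. For a count of 0 the limit is 3 counts of the total. No test was run, since each group has 1 library. Intervals and calls were tried on counts simulated as independent Poisson draws at the depth of the monocyte-like class. The intervals assume the same model, so these counts cannot test UMIs gathered in few cells or shallow classes. All 9 genes are named. Of each further list, up to 3 genes with the largest log2 ratio in size and at least 100 UMIs are named, over all cells, macrophage-like cells and erythroid cells. For likeness, the 3 genes of at least 200 UMIs with the highest correlation were taken, of which the first is given for most. Blvra, Erfe and Bmp6 fall outside this and were added after their values were seen. The genes and lists were chosen with earlier results of these data known. Gene positions are from RefSeq on GRCm38.p6. Promoter and iron-responsive element sequences were not analysed here. Alternatives changed the scaling, the filters, doublet removal, the clustering, the class proportions and the call. Where doublets were kept, the cells were also clustered again.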

Additional observations from a re-analysis of the deposited data

How the results depend on the processing

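No paired analysis was possible because each group has 1 library, and for the same reason no replicate could be left out. Over all cells, the count of the 9 genes called higher was 3 and became 2 at a 2-fold call and 2 with the class proportions of ground; none was called lower under any alternative run. With the class proportions of ground the log2 ratios over all cells were 0.21 for Hmox1, 1.26 for Cd163, 1.43 for Spic, −0.092 for Slc40a1, −0.22 for Tfrc, −0.23 for Slc11a1, −0.0077 for Fth1 and 0.14 for Ftl1. As the mean of CPM over cells they were 1.31 for Hmox1, 2.83 for Cd163, 2.24 for Spic, 0.36 for Slc40a1, −0.47 for Tfrc, 0.046 for Slc11a2, 0.062 for Slc11a1, 0.14 for Fth1 and 0.42 for Ftl1. With the median log2 ratio of all genes set to 0 they were 0.77 for Hmox1, 0.13 for Slc40a1, −0.38 for Tfrc, −0.000942 for Fth1 and 0.11 for Ftl1. Scaling without haemoglobin, mitochondrial, granule and S100 transcripts gave −0.35 for Tfrc, 0.027 for Fth1 and 0.14 for Ftl1. With at least 1000 UMIs per cell Hmox1 was 0.77 and Ftl1 0.18, and with at most 5% mitochondrial UMIs Spic was 3.26. Slc40a1 in B cell-like cells turned from 1.39 to −0.060 with doublets kept. The cause of these shifts was not tested, apart from the class proportions, which that alternative fixes.

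In macrophage-like cells, the log2 ratio over 13 alternatives ran from 0.77 to 2.70 for Hmox1, from 0.96 to 2.68 for Cd163, from 0.65 to 2.58 for Slc40a1, from 0.51 to 2.26 for Spic (past 1.5-fold in 11) and from 0.44 to 1.05 for Ftl1 (past 1.5-fold in 8). The removal of cells rich in other transcripts, scaling to the macrophage markers and leaving out barcodes found in both libraries were alternatives chosen after seeing the data. The ground side of that class rests on 61 cells and 108291 UMIs, and among the 5 called genes Cd163 and Spic had the fewest UMIs there. The planned search of promoter and transcript sequences was not run.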
